A study of Mus musculus with 4 samples.

Results

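Tumor macrophages were found among live CD3+ cells that had been sorted from subcutaneous mouse tumors and measured by CITE-seq, which reads polyadenylated RNA and antibody-derived surface tags from the same droplet. They numbered 293 of 21900 barcodes with 200 to 3000 detected genes and at most 5% mitochondrial RNA, out of 38860 barcodes called as cells. A barcode was taken as a macrophage when it held at least 3 unique molecules (UMIs) of C1qa, C1qb and C1qc together and at most 1 UMI of Cd3d, Cd3e and Cd3g together. The cells were thus chosen by their C1q and Cd3 UMIs, which are given as a description and carry no test. T cells, used for comparison, were the 19934 barcodes within the same limits with at least 2 Cd3 UMIs and no C1q UMI.

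The tumors grew in wild-type C57BL/6J mice from Tsc2-deficient 105K cells, a mouse kidney tumor line. Tumor cells carried a non-targeting hairpin (sh-NC, control, n = 2 libraries) or a hairpin against Cd276, which encodes the immune checkpoint B7-H3 (sh-B7-H3 (1), knockdown, n = 2 libraries). The hairpin lines were selected pools of cells, not single clones, and the mice's own cells carried no hairpin. Cells of 80 tumors per group were pooled before sorting. The labels' design text describes duplicate lanes, while a legend of the study calls the 2 samples of a group independent. Every p-value thus measures the spread between libraries, which may be technical, and not between mice. Per the study's methods the mice were males, aged 6 weeks when the tumor cells were injected under the skin, and the day of harvest of these tumors was not given in the sources used here. An effect of handling the 2 groups separately cannot be told apart from the hairpin's.

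Tissue macrophages take up dying cells and debris, make the C1q subunits of complement and the lipid carrier Apoe, and degrade what they ingest in lysosomes. They display peptides to CD4+ T cells on MHC class II and to CD8+ T cells on MHC class I, and they secrete chemokines that draw other leukocytes. Interferon-gamma from T cells is a known inducer of MHC class II and of chemokines such as Cxcl9 in macrophages. Sorting gated on CD3, which macrophages do not make, so a share of macrophages here is a share of the sorted barcodes and not of the tumor.

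The label was checked against macrophage markers that the rule had not used. Apoe was detected in 98.3% of the 293 macrophages, Lyz2, the lysozyme of myeloid cells, in 91.1%, the invariant chain Cd74 in 89.4% and the class II chain H2-Ab1 in 81.2%. Csf1r, the receptor for the main macrophage growth factor, was detected in 37.2%, Adgre1, which encodes F4/80, in 26.3% and Itgam, which encodes CD11b, in 15.4%. The RNA of these cells was thus that of macrophages, with the low-abundance receptors seen in a minority. Cd276 RNA, the hairpin's target in the tumor cells, had 0, 0 and 0 UMIs in the macrophages of control libraries 1 and 2 and knockdown library 1 and 1 UMI in those of knockdown library 2, and since these host cells carried no hairpin, they are no check of the knockdown.

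Macrophage barcodes were shallow beside T cells. Their median RNA depth was 2811 and 1862 UMIs in control libraries 1 and 2 and 1918 and 1757 UMIs in knockdown libraries 1 and 2, against 6764 to 8518 in T cells. Summed over macrophages, the libraries held 103618, 111312, 288076 and 223538 RNA UMIs and 90175, 90015, 316080 and 171461 tag UMIs in that order. The median count of C1q UMIs was 34, 26, 29 and 22, so most members lay far above the limit of 3. With at most 1 Cd3 UMI, exactly 2 C1q UMIs were seen in 0, 1, 4 and 3 barcodes just outside the rule and exactly 3 in 0, 2, 1 and 2 just inside it. With at least 3 C1q UMIs, 1 Cd3 UMI was seen in 9, 14, 35 and 31 barcodes inside the rule and 2 Cd3 UMIs in 3, 2, 10 and 10 outside it. In all, 93, 82, 118 and 153 barcodes with at least 3 C1q UMIs held 2 or more Cd3 UMIs at median depths of 7278.5 to 9373.5 RNA UMIs, near that of T cells, and were left out. Pairs of libraries shared 17 to 35 called barcode sequences, and 1 macrophage barcode sequence occurred in both knockdown libraries.

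T cell RNA in the macrophage barcodes differed between the groups. The 13 T cell marker genes held 299 and 431 CPM (counts per library scaled to the same total) in the control libraries, against 708 and 769 in the knockdown libraries, and the 8 effector T cell genes 135 and 395 against 1038 and 1150. In the T cells themselves the 13 genes held 6389 and 6409 against 6601 and 6423 CPM. The 8 effector genes held 2145 and 2595 against 11390 and 10910 there, so that list alone does not measure the amount of T cell RNA. If the UMIs of the T cell receptor constant genes came with RNA of whole T cells, such RNA would make up 3.44 and 6.72% of control macrophage RNA and 9.75 and 11.8% of knockdown macrophage RNA. If they came with free RNA as in near-empty droplets, the shares would be 3.65 and 7.02%, against 10.96 and 12.78%. Its part in the RNA results was tested only by leaving out or subtracting it, as given below. Of the other lists, B cell genes held 62, 19, 42 and 40 UMIs in control libraries 1 and 2 and knockdown libraries 1 and 2. Genes of neutrophils held 0 to 3 UMIs per library (6 of 7 at 0 throughout), of dendritic cells 2 to 11 (4 of 10 at 0), of tumor or epithelial cells 0 to 3 (3 of 6 at 0), of fibroblasts 0 to 2 (5 of 6 at 0), of endothelial cells 0 to 4 (5 of 6 at 0) and of erythroid cells 0 to 4 (2 of 5 at 0). All 6 mast cell genes were at 0.

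The knockdown libraries held a larger share of macrophages among sorted barcodes. Control library 1 held 31 macrophages in 7549 barcodes within the limits, 0.411% (exact 95% interval 0.279 to 0.582), and control library 2 held 37 in 6233, 0.594% (0.418 to 0.817). Knockdown library 1 held 127 in 3499, 3.63% (3.03 to 4.30), and knockdown library 2 held 98 in 4619, 2.12% (1.73 to 2.58). Both knockdown libraries lay above both control libraries, as the plot of shares by library shows. The mean share was 0.502% ± 0.129 (SD, n = 2) in the control and 2.88% ± 1.07 (SD, n = 2) in the knockdown group, a ratio of 5.73, and the ratios of single libraries ran from 3.57 to 8.84. The exact two-sided permutation test over libraries gave p = 0.3333, the smallest that 2 against 2 allows. Set against T cells, there were 0.430 and 0.622 macrophages per 100 T cells in the control libraries, against 4.39 and 2.53 in the knockdown libraries. The intervals cover counting error only, and the efficiency of the CD3 gate was not tested.

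**Figure D1:**
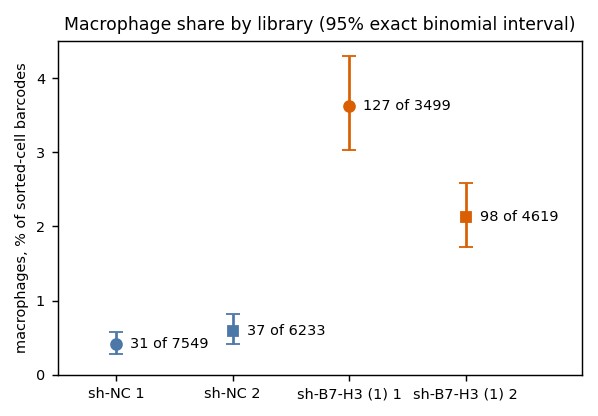
Share of macrophages among sorted barcodes within the limits, in percent, for each of the 4 libraries, with exact 95% binomial intervals that cover counting error only. Both control (sh-NC) libraries lie under 1% and the knockdown (sh-B7-H3 (1)) libraries at 2.12 and 3.63%.

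The surface tags, which had no part in choosing the cells, separated macrophages from T cells. Of 197 tags tested, 75 (38.1%) differed: 30 (15.2%) were higher and 45 (22.8%) lower on macrophages than on T cells of the same library (edgeR's quasi-likelihood test, Benjamini-Hochberg adjusted p under 0.05). CD11b, the alpha chain of an integrin of myeloid cells, stood at 31130 and 36780 CPM of the tag UMIs on control macrophages and 22430 and 23210 on knockdown macrophages, against 731 to 1399 on T cells. It was 3.97 log2 units higher on macrophages (SE 0.34, adjusted p = 0.000655). In all 4 libraries every macrophage, 293 of 293, had a CD11b tag share above the median of the T cells of its library. I-A/I-E, the MHC class II protein, was 3.56 log2 units higher (SE 0.29, adjusted p = 0.000539), and 30 of 31, 32 of 37, 120 of 127 and 90 of 98 macrophages lay above the T cell median. PIR-A/B, paired Ig-like receptors of myeloid and B cells, was higher by 2.07 log2 units, the Fc receptor tag CD16/32 by 1.80, CD11c by 1.63, the lysosomal membrane proteins CD63 and LAMP-1 by 1.49 and 1.44, CD317 by 1.101, the costimulatory receptor CD40 by 0.94 and F4/80 by 0.61, with adjusted p from 0.000174 to 0.00586. Other tags of myeloid proteins did not follow. The costimulatory ligand CD86 and the scavenger receptor CD36 were lower on macrophages, by 1.19 and 0.88 log2 units (adjusted p = 0.00693 and 0.00409, both calls lost with total counts). CD14, CD169, MERTK, SIRP-alpha, CD204, CX3CR1 and CD68 did not pass, with log2 differences of 0.17, 0.15, 0.26, 0.25, 0.30, -0.01 and 0.92 (adjusted p = 0.166, 0.133, 0.0626, 0.0639, 0.189, 0.9499 and 0.0816). With total counts in place of TMM these 7 tags were called higher, by 0.77 to 1.69.

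T cell proteins were at the other end. CD90.2, a form of the T cell protein Thy-1, stood at 297200 to 409100 tag CPM on T cells and 49340 to 59350 on macrophages, a log2 difference of -3.49 (SE 0.16, adjusted p = 7.0e-05). No macrophage of any library reached the CD90.2 median of its T cells. CD2, the T cell receptor beta chain, CD8b, GITR, CD5, CD43 and CD4 were lower by log2 differences of -3.34, -3.24, -3.20, -3.05, -2.59, -2.51 and -2.50. CD205 was lower too (-3.19, adjusted p = 0.0178), but its level on T cells ran from 1481 to 17120 CPM between libraries and the call was lost without control library 1 or 2 or knockdown library 2 (adjusted p = 0.0525 to 0.0699). The CD3 tag itself, with 2329 to 3384 CPM on macrophages and 1667 to 2350 on T cells, separated the cells poorly. Its difference was -0.24 (adjusted p = 0.0175) and turned to 0.53 without TMM, the scaling that discounts a few dominant tags, so its direction was not settled. Cells had been stained with an anti-CD3 antibody for the sort before the tags were added, and the part of that antibody in the CD3 tag was not tested. The CD8a tag, unlike CD8b, separated the cells poorly too, at 780 to 1308 CPM on macrophages and 640 to 900 on T cells. Its difference was -0.31 (adjusted p = 0.0345). Without TMM the median tag was 0.88 higher on macrophages instead of 0.11, and 87.1% of the calls in place of 40% were higher.

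**Figure D2:**
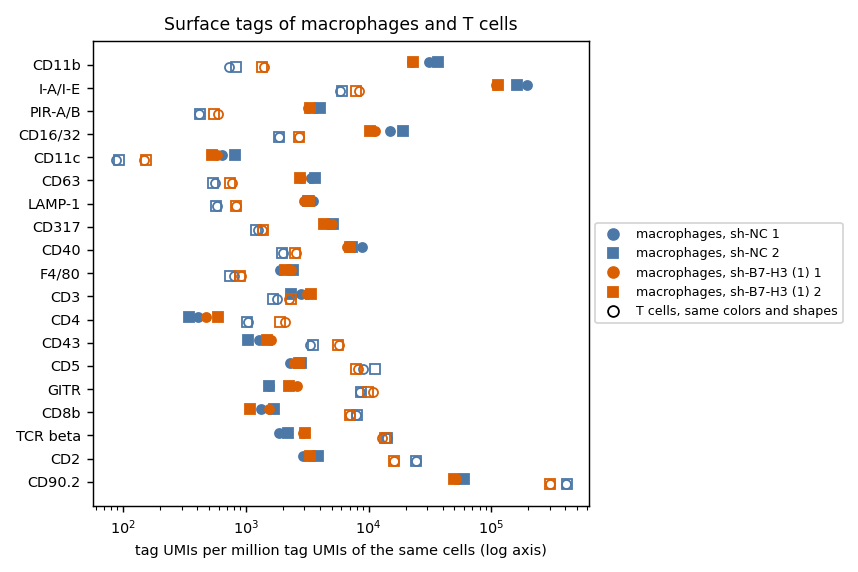
Surface tags on macrophages and on T cells in each of the 4 libraries, in tag CPM on a log axis. CD11b and I-A/I-E lie far higher on macrophages, CD90.2 and CD2 far higher on T cells, and the CD3 tag differs little.

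Between the groups, several myeloid proteins, among them I-A/I-E, CD16/32 and CD11b, made up a smaller part of the tag counts of knockdown macrophages. Of 196 tags tested, 82 (41.8%) were called, 41 (20.9%) higher and 41 (20.9%) lower, so a called tag is common here and a single call says little. I-A/I-E fell from 194600 and 162700 CPM in the control libraries to 109700 and 113000 in the knockdown libraries, by 1.01 on the log2 scale (SE 0.17, adjusted p = 3.58e-05). CD16/32 fell from 15000 and 19120 to 11230 and 10200, by 1.00 (SE 0.11, adjusted p = 8.48e-08), on cells of both groups that had been treated with a reagent blocking Fc receptors. CD11b fell from 31130 and 36780 to 22430 and 23210, by 0.90 (SE 0.12, adjusted p = 8.09e-07). In each of these 3 tags both control libraries lay above both knockdown libraries, which held for 14.8% of all tags tested (68.4% lay higher without overlap, in counts per total without TMM). On T cells the same tags changed by 0.10, 0.19 and 0.45 log2 units. The tags of folate receptor beta, CD169 and MERTK, proteins of some tissue macrophages, were called higher, at levels near those of T cells. Folate receptor beta rose from 1736 and 2039 to 3394 and 3671 CPM, by 0.57 (adjusted p = 0.000608). CD169, a sialic acid-binding lectin, rose from 2092 and 2407 to 3642 and 3630, by 0.36 (adjusted p = 0.0165), and MERTK, a receptor for the uptake of dying cells, from 545 and 646 to 942 and 1097, by 0.43 (adjusted p = 0.0454). On T cells these 3 tags were higher by 0.63, 0.34 and 0.38, and their change was not called different between the cell types (adjusted p = 0.836 to 0.841). In mean UMIs per barcode folate receptor beta was 5.03, 4.95, 8.40 and 6.39 on macrophages of control libraries 1 and 2 and knockdown libraries 1 and 2, and 4.43, 3.96, 7.93 and 6.03 on T cells. The RNA of Folr2, Siglec1 and Mertk, which encode them, had 1 to 4 UMIs per library in macrophages. Scaled to isotype controls, CD169 and MERTK lost their calls (0.13 and 0.19, adjusted p = 0.396 and 0.390). In all, CD169 and MERTK were not called under 6 and 13 of 17 other settings, and CD169 stood at 0.21 without control library 1.

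Other myeloid tags were lower as well. CD68, a protein mostly of lysosomes, had 2270 and 1159 CPM in the control, against 948 and 979 in the knockdown libraries and fell by 1.17 on the log2 scale (adjusted p = 1.35e-05). PD-L1, the ligand of PD-1, fell by 0.72 (adjusted p = 0.000498), CD11c by 0.70 (adjusted p = 0.00189), and the costimulatory proteins CD40 and CD86 by 0.56 and 0.53 (adjusted p = 0.000107 and 0.000448). The ectoenzymes CD39 and CD38 fell by 0.69 and 0.64 on macrophages (adjusted p = 7.03e-05 and 9.17e-05), while on T cells of the same libraries they differed by 1.21 and 1.37 in the other direction. F4/80, by contrast, overlapped between the groups, with 1903 and 2407 CPM in the control, against 2354 and 2088 in the knockdown libraries (log2 difference -0.28, adjusted p = 0.0898). F4/80 passed as lower under 4 of 17 other settings, and its sign turned with total counts (0.05). CD11c lost its call without control library 2 (adjusted p = 0.118), and CD86 without knockdown library 2 (adjusted p = 0.085). Leaving out each tag's highest barcodes took the call from PD-L1 (adjusted p = 0.0506). The PD-L1 tag was also not called higher on macrophages than on T cells (log2 difference 0.12, adjusted p = 0.556). It averaged 2.58 and 2.32 UMIs on control and 1.82 and 1.17 on knockdown macrophages, and 2.07, 1.77, 2.37 and 1.61 on T cells.

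A number of tags changed in the same direction on macrophages and T cells. Ly-6C, a protein of monocytes and of some T cells, fell from 19500 and 19500 CPM on control macrophages to 7285 and 8732 on knockdown macrophages, by 1.62 log2 units (SE 0.11, adjusted p = 6.12e-12), and on T cells by 1.56. The tags of CD1d, CD45 and CD73 fell by 1.39, 1.32 and 1.05 on macrophages and by 1.22, 1.12 and 0.84 on T cells. A second CD45 tag, CD45.2, did not fall in CPM. It stood at 8035 and 8269 on control and 10500 and 10970 on knockdown macrophages. On T cells it stood at 6979 and 6696 against 7481 and 7969. The fall thus holds for 1 tag of this protein only, and the disagreement was not tested. CD22, a B cell lectin, was 1.14 log2 units higher on knockdown macrophages and 1.28 on T cells, and the chemokine receptor CCR8 0.98 and 0.83. CCR4, Tie-2, OX40L, CLEC9A and Tim-1 were higher by 0.79, 0.79, 0.75, 0.72 and 0.70 on macrophages and by 0.57 to 0.66 on T cells. These tags, CD22 and CCR8 were on macrophages at levels near those of T cells. Tim-1 averaged 13.48 and 12.73 UMIs on control and 24.45 and 18.06 on knockdown macrophages, and 13.65, 11.95, 23.5 and 18.01 on T cells. CD22 averaged 1.55, 1.14, 3.07 and 2.74 on macrophages in that order, and 1.09, 1.00, 3.08 and 2.36 on T cells. CD24 was higher by 0.68 (T cells 1.65, not called) and CD14, a co-receptor for lipopolysaccharide, by 0.46 (adjusted p = 0.0173). The CD14 call was lost without any 1 of the 4 libraries, with log2 differences of 0.32 to 0.54 (adjusted p = 0.0571 to 0.218).

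Isotype control antibodies, which bind no mouse antigen, gave 0.487 and 0.496% of macrophage tag UMIs in the control libraries, against 0.725 and 0.732% in the knockdown libraries, and on T cells 0.282 and 0.287% against 0.379 and 0.393%. Of the 9 isotype tags, 3 were called higher and 0 lower, beside 20.9% of all tags in either direction, with log2 differences from -0.21 to 0.68. The direction of the tag calls as a whole depended on the scaling. With TMM 50% of calls were higher, with total counts 82.4% and with isotype scaling 13.6%, while the median tag shifted from 0.04 to 0.37 and -0.20. I-A/I-E, CD16/32, CD11b, CD38 and CD39 remained called lower under each of these scalings, and CD11c and CD86 lost their calls with total counts (log2 differences -0.37 and -0.20). Per macrophage, CD11b averaged 90.23 and 89.19 UMIs in the control, against 55.5 and 40.4 in the knockdown libraries, I-A/I-E 564 and 395 against 271 and 197, and the 9 isotypes together 14.13 and 12.03 against 17.94 and 12.74. CD11b and I-A/I-E were lower in knockdown macrophages in UMIs per barcode as well as in share. Some abundant tags of T cells were lower per T cell too. CD90.2 averaged 2089 and 1929 UMIs in the control, against 1443 and 1041 in the knockdown libraries, and CD2 125.6 and 114.8 against 77.7 and 56.5. CD48 overlapped, at 241 and 221 against 255 and 184. CD11b on T cells was 3.80 and 3.92 against 6.73 and 4.73. A fall of abundant tags in general was not tested.

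The change of a tag on macrophages was also set against its change on T cells in 1 fit, a comparison added after the data had been examined. The fit had terms for group and cell type but none for the library. It thus treated the macrophage and T cell sums of a library as independent. Of 197 tags, 27 (13.7%) differed in their change, 9 (4.57%) towards higher and 18 (9.14%) towards lower on macrophages. CD38 and CD39 differed most among the named tags, by -1.99 (adjusted p = 0.0016) and -1.88 (adjusted p = 0.00088). In mean UMIs per barcode, CD38 was 71.2 and 66.1 on control and 47.2 and 39.7 on knockdown macrophages, and 87.1 and 91.2 against 296 and 206 on T cells. CD11b, CD16/32, I-A/I-E and CD11c differed by -1.34, -1.17, -1.09 and -1.06, while CD1d, CD45, CD73 and Ly-6C did not pass (-0.19 to -0.03, adjusted p = 0.488 to 0.913).

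**Figure D3:**
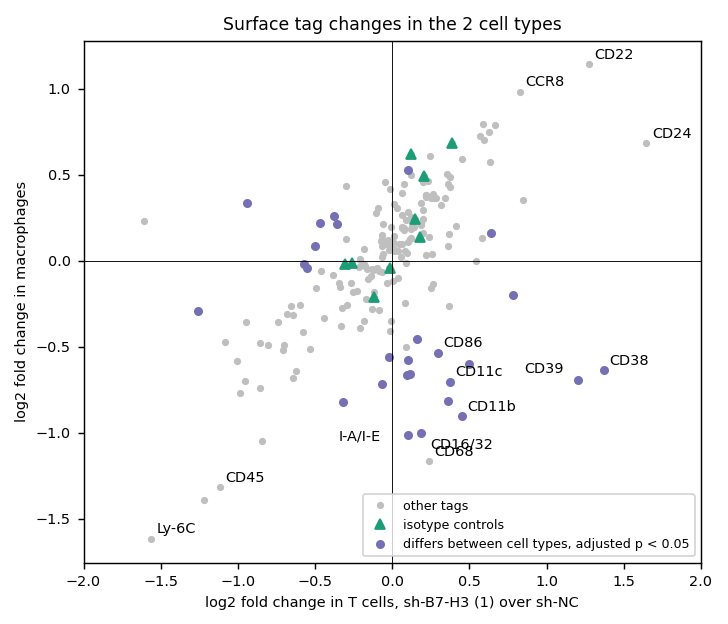
Log2 change of each surface tag, knockdown against control, on T cells (horizontal axis) and on macrophages (vertical axis). Purple points are tags whose change differed between the cell types at an adjusted p under 0.05, and green triangles are the 9 isotype controls. CD38, CD39, CD11b and I-A/I-E lie below the diagonal, Ly-6C and CD22 near it, and the TIGIT tag is outside the plotted range.

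In the RNA, 8 of 1804 genes tested (0.443%) passed the test between the groups, 7 (0.388%) higher and 1 (0.0554%) lower in knockdown macrophages, and 210 had an unadjusted p under 0.05. Both called genes of the chemokine list were monocyte chemoattractants, in opposite directions. Ccl8, which in the mouse signals through the receptor Ccr8, was counted 27 and 42 times in control macrophages and 303 and 293 times in knockdown macrophages. Its level was 261 and 377 CPM in the control libraries, against 1052 and 1311 in the knockdown libraries, a rise of 2.01 log2 units (SE 0.21, adjusted p = 0.00147). T cells held at most 1.07 Ccl8 CPM. Ccl12, a ligand of Ccr2, was counted 592 and 574 times in control and 332 and 300 times in knockdown macrophages. Its level fell from 5713 and 5157 to 1152 and 1342 CPM, by 2.00 log2 units (SE 0.15, adjusted p = 0.000123). Neither gene's groups overlapped, which held for 13.6% of all genes tested in the higher and 30.2% in the lower direction.

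The fall of Ccl12 rested on 1 barcode in each control library. That barcode held 366 of 592 Ccl12 UMIs (61.8%) in control library 1 and 439 of 574 (76.5%) in control library 2, while the top barcodes of the knockdown libraries held 13.9 and 10.3%. With the highest barcodes of each gene left out (1 in each control library, 4 and 3 in the knockdown libraries), Ccl12 stood at 2820 and 1547 CPM against 963 and 1257, and the difference of -0.83 did not pass (adjusted p = 0.129), although both control libraries still lay higher. It did not pass either in barcodes without any Cd3 UMI (-0.67, adjusted p = 0.329). That setting kept 182 and 63 Ccl12 UMIs in control libraries 1 and 2, fewer than their top barcodes held. The top barcode of each control library thus had 1 Cd3 UMI and was left out there too, so the 2 settings are not separate checks. Ccl8 was less dependent on single barcodes: the top barcode held 22.2, 66.7, 23.4 and 39.3% of its UMIs. With the highest barcodes left out, its level was 262 and 160.4 against 770 and 703 CPM and the rise stood at 1.97 (adjusted p = 0.00195). Neither Cd3 nor T cell receptor constant UMIs were seen in 17, 11, 45 and 27 macrophages, in which none of 682 genes tested passed edgeR's test (51 at an unadjusted p under 0.05). Ccl8 had 13, 35, 64 and 21 UMIs in them, or 327, 1603, 677 and 346 CPM, and its difference reversed to -0.65 (adjusted p = 0.89). Of the 35 UMIs of control library 2, 28 were in 1 barcode.

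Shares of cells with a UMI were compared after thinning each macrophage to 2000 RNA UMIs, which kept 16, 16, 61 and 41 and left out 15, 21, 66 and 57 shallower ones. Ccl8 was then seen in 31.2 and 6.25% of control and 34.4 and 36.6% of knockdown macrophages, a difference of 16.8 points between the means (exact permutation p = 0.3333, the smallest possible). Without thinning the mean shares were 23.7 and 31.2%. Ccl12 was seen in 68.8 and 68.8% of control and 49.2 and 68.3% of knockdown macrophages, a difference of -10.0 points (exact permutation p = 0.3333). The share of Ccl12-positive cells thus differed far less than its level. At the same depth at most 0.3% of T cells of any library held a UMI of either gene. The 2 chemokines were seen in the same thinned macrophage in 5, 1, 7 and 13 cells, Ccl8 alone in 0, 0, 14 and 2, and Ccl12 alone in 6, 10, 23 and 15. Ccl8 without Ccl12 was therefore counted in the knockdown libraries and in neither control library, where only 16 cells each were left to show it.

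**Figure D4:**
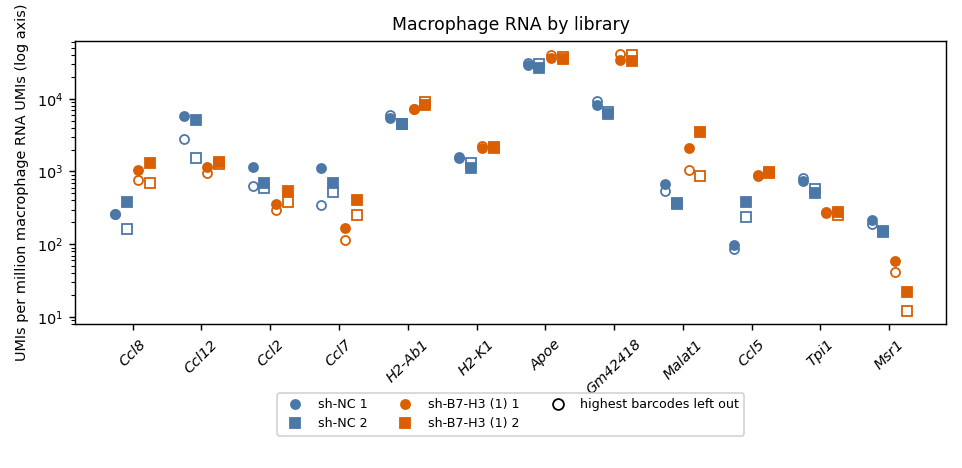
RNA level of named genes in the macrophages of each library, in CPM on a log axis. Filled points are sums over all macrophages and open points the sums without each gene's highest barcodes. For Ccl12 the open control points fall to 2820 and 1547 from 5713 and 5157, while Ccl8 stays lower in both control libraries either way.

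Ccl12 and Ccl8 are neighbors on mouse chromosome 11, on the plus strand, with starts 13340 bases apart (Ccl12 at chr11:82101845-82103400 and Ccl8 at chr11:82115185-82116799, GRCm38, the build of mm10). Their upstream sequences are shown because the genes lie side by side and were called in opposite directions. From 45 to 16 bases before each RefSeq start on GRCm38.p6, with the letters TATAAA of a TATA box in capitals, they read:
Ccl12 (chr11:82101800-82101829): ggctctttgtgtctTATAAAagtcagatgg
Ccl8 (chr11:82115140-82115169): attccctgctcccTATAAAaggcagattag
The windows share 11 of 30 bases at the same distance from the start, and 18 of 29 with the TATAAA letters aligned. In the latter count the 6 letters of TATAAA match by construction, and neither count was tested against other promoters. TATAAA, searched on both strands, was found within 250 bases before the start in 12.37% of 32851 RefSeq promoters. Letter patterns for the transcription factors STAT, AP-1 and NF-kB and for an interferon-response element were searched there too. They were found before neither gene, against 7.02, 6.75, 45.8 and 2.98% of promoters in that order. The transcripts share no run longer than 13 bases.

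The other chemokines of the list did not pass the test, though some did under other settings. Ccl2 and Ccl7, both ligands of Ccr2, had log2 differences of -0.93 (adjusted p = 0.254) and -1.57 (adjusted p = 0.176). Ccl2 stood at 1139 and 692 CPM in the control, against 358 and 532 in the knockdown libraries, and Ccl7 at 1129 and 701 against 167 and 412. In control library 1 the top barcode gave 56.8% of Ccl2 and 76.1% of Ccl7. Ccl7 passed under 7 and Ccl2 under 4 of 18 other settings, each time lower. Ccl6 stood at 434 and 305 against 121.5 and 264 CPM (-0.84, adjusted p = 0.411) and passed under 4 of 18, with -1.67 when its highest barcodes were left out (adjusted p = 0.030). Cxcl9, the interferon-gamma-induced ligand of Cxcr3, overlapped between the groups at 936 and 557 against 1218 and 608 CPM (log2 difference 0.44, adjusted p = 0.669). Its sign turned to -0.15 without knockdown library 1 and to -0.05 without its highest barcodes. Cxcl9 passed as higher under 2 of 18 other settings and stood at 0.95 without control library 1. Of 10 chemokines tested, 1 rose and 1 fell, and 3 had a positive log2 difference, with a median of -0.17 against 0.01 over all 1804 genes.

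None of the MHC genes tested passed between the groups, though H2-Ab1 did under most other settings. Of the 6 class II genes all had positive log2 differences, with a median of 0.49, and 3 lay higher without overlap, against 13.6% of all genes. H2-Ab1 stood at 5501 and 4456 CPM in the control, against 7276 and 8298 in the knockdown libraries. The log2 difference was 0.77 (SE 0.16, adjusted p = 0.0999). In barcodes without any Cd3 UMI the libraries lay closer, at 6480 and 5510 against 7119 and 7182 CPM for H2-Ab1. With neither Cd3 nor T cell receptor constant UMIs H2-Ab1 stood at 6216 and 4076 against 9257 and 6511. It passed, always higher, under 11 of 18 other settings, 3 of them with a library left out, among them DESeq2, T cell RNA subtracted and each gene's highest barcodes left out (0.79, adjusted p = 0.0435). H2-Eb1 and H2-Aa, the partner chains, differed by 0.65 (adjusted p = 0.258) and 0.39 (adjusted p = 0.358) and passed under 5 and 2 of 18 other settings, and Cd74, which escorts class II to the endosome, by 0.36 (adjusted p = 0.499), with 20120 and 14360 against 19570 and 20990 CPM. The I-A/I-E tag was lower on the same barcodes.

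Among class I and peptide loading genes, 0 of 12 tested passed, 10 had positive log2 differences with a median of 0.42, and 8 lay higher without overlap, against 13.6% of all genes. The other 2, the proteasome activator subunits Psme1 and Psme2, lay lower without overlap, as did 30.2% of all genes. H2-K1, a class I heavy chain, stood at 1515 and 1132 against 2086 and 2076 CPM (0.78, adjusted p = 0.138, and adjusted p = 0.030 with its highest barcodes left out), and passed under 6 of 18 other settings. H2-D1, B2m, the light chain, and Psmb8, a subunit of the immunoproteasome, differed by 0.47, 0.43 and 0.39 (adjusted p = 0.337, 0.337 and 0.371). On T cells H2-K1 was 0.32 log2 units higher, with 2100 and 2811 CPM as group means. Of the interferon-gamma response list 0 of 7 tested genes passed, with a median of 0.26, and of the type I interferon list 0 of 9, with a median of -0.20.

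No gene of macrophage identity or digestion passed the test between the groups, though several did under other settings. Of 15 identity genes and 14 lysosome genes tested 0 passed, with medians of 0.16 and 0.14, and of 6 Fc receptor genes 0, with a median of -0.01. Apoe, the most abundant of these, stood at 28780 and 26410 CPM in the control, against 35790 and 34760 in the knockdown libraries (0.48, adjusted p = 0.207), and passed as higher under 6 of 18 other settings. The cathepsin gene Ctss differed by 0.42 (adjusted p = 0.255) and Aif1, an actin-binding protein of macrophages, by 0.61 (adjusted p = 0.182, and adjusted p = 0.030 with its highest barcodes left out), and they passed as higher under 3 and 7 of 18. Trem2, a lipid-sensing receptor of phagocytes, stood at 454 and 252 against 587 and 617 CPM (0.90, adjusted p = 0.246, passing under 4 of 18), in a lipid list whose 9 tested genes had a median of -0.03. Of these 9, 4 had positive log2 differences. Without overlap 2 lay higher and 3 lower, against 13.6 and 30.2% of all genes. With the highest barcodes left out, Fabp5 of that list passed as lower (-2.03, adjusted p = 0.0451). Lgals3 and Spp1 did not (-0.61 and -0.55, adjusted p = 0.324 and 0.406). Of the scavenger receptors, Mrc1, the mannose receptor, stood at 222 and 162 against 69.4 and 67.1 CPM (-1.35, adjusted p = 0.199). Msr1 stood at 212 and 153 against 59.0 and 22.4 (-1.95, adjusted p = 0.176). These 2 passed as lower under 2 and 6 of 17 other settings that tested them. Of the 6 scavenger and resident macrophage genes tested 0 passed, with a median of -0.45.

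Glycolysis, complement and cell cycle genes had negative medians, with no call over all macrophages. All 7 tested genes of arginase, hypoxia and glycolysis had negative log2 differences, with a median of -0.79, and 6 lay lower without overlap, against 30.2% of all genes. Tpi1, a glycolytic isomerase, stood at 743 and 512 against 278 and 282 CPM (-1.03, adjusted p = 0.146), and passed under 7 of 18 other settings, among them its highest barcodes left out (-1.24, adjusted p = 0.030). Aldoa, Ldha and Mif, an enzyme each of the middle and end of glycolysis and a cytokine, differed by -0.79, -0.56 and -0.44 (adjusted p = 0.199, 0.264 and 0.328), and Aldoa passed under 4 of 18. Complement genes had a median of -0.83 over 4 tested, with factor B, Cfb, at -0.89 and the C5a receptor C5ar1 at -1.51 (adjusted p = 0.324 and 0.207). Proliferation genes had a median of -1.46 over 5 tested, with Pclaf at 24, 24, 28 and 9 UMIs (-1.51, adjusted p = 0.207) and Birc5 at 14, 24, 23 and 7 (-1.46, adjusted p = 0.258). Of 17 other settings that tested them, Pclaf passed under 4 and C5ar1 and Birc5 under 2 each, all lower. T cell ligands and checkpoints (6 tested), immediate-early genes (5), monocyte genes (3) and inflammatory cytokines (2) had medians of -0.18, 0.26, -0.29 and -0.39 with 0 calls, though Ccr2 of the monocyte list (11, 14, 12 and 13 UMIs, -1.10, adjusted p = 0.324) passed without any Cd3 UMI and with its highest barcodes left out (-2.74, adjusted p = 0.0432 with the latter), and 1 regulatory cytokine gene and 0 glucocorticoid genes could be tested.

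**Figure D5:**
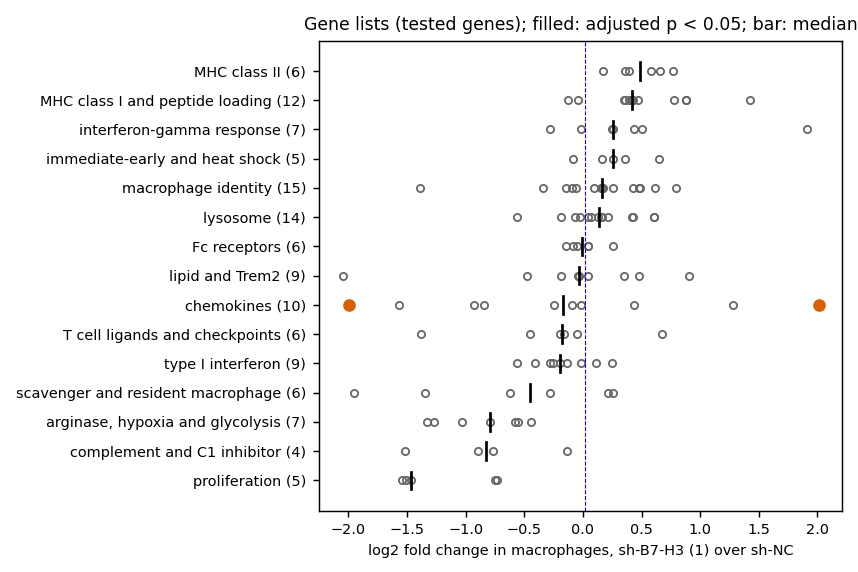
Log2 differences between knockdown and control macrophages for the tested genes of each list with at least 4 of them. Filled points passed the test, bars mark the list's median and the dashed line the median of all 1804 genes. MHC lists have positive medians and glycolysis, complement and proliferation lists negative ones.

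The other 6 called genes rose in macrophages, and each was also called higher in the T cells of the knockdown libraries. Gm42418 and AY036118, noncoding annotations that overlap by 923 bases on opposite strands of chromosome 17 (chr17:39846958-39848788 and chr17:39847113-39848035, GRCm38) at a ribosomal RNA repeat, rose by 2.34 (SE 0.17, adjusted p = 0.000123) and 1.71 (SE 0.15, adjusted p = 0.000401). Gm42418 stood at 8261 and 6226 CPM in control and 34410 and 32790 in knockdown macrophages, and on T cells it rose by 2.40. Lars2, the mitochondrial leucyl-tRNA synthetase, rose by 2.08 from 174 and 126 to 600.5 and 555 (adjusted p = 0.00319), with T cell means of 124.5 and 514.5. These genes rose in both cell types.

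Malat1, a nuclear noncoding RNA, rose by 2.54 (SE 0.31, adjusted p = 0.00319), from 676 and 368 to 2114 and 3449 CPM, far under the T cell means of 13160 and 16200. The top barcode gave 38.6, 24.4, 44.5 and 41.4% of its UMIs, and without the highest barcodes the rise was 1.26 (adjusted p = 0.025). In barcodes without any Cd3 UMI it was 0.75 (adjusted p = 0.187), and with no upper limit on genes it reversed to -0.32 (adjusted p = 0.498). Ccl5, a chemokine of effector T cells and activated macrophages, rose by 2.07 (SE 0.36, adjusted p = 0.047), from 96.5 and 386 to 882 and 998, while the T cell means were 1543 and 8319. Ccl5 lost its call when free RNA, measured in near-empty droplets, was subtracted (1.55, adjusted p = 0.163), and also, at log2 differences of 1.92 to 2.26, with DESeq2, RLE size factors, at least 10 C1q UMIs or neither Cd3 nor receptor UMIs (adjusted p = 0.0702 to 0.226). With T cell RNA subtracted it stood at 49.6 and 286 CPM (5 and 30 UMIs) in the control, against 61.3 and 40.3 (16 and 8 UMIs) in the knockdown libraries, so that no rise remained, and it was too low to be tested. The mitochondrial gene mt-Nd2 rose by 0.92 (SE 0.16, adjusted p = 0.046), from 791 and 889 to 1548 and 1355, and lost its call without knockdown library 1 (0.84, adjusted p = 0.0918) and with free RNA subtracted (0.70, adjusted p = 0.193), as well as with RLE size factors (0.91, adjusted p = 0.0591), at least 10 C1q UMIs (0.95, adjusted p = 0.106) and neither Cd3 nor receptor UMIs (0.50, adjusted p = 0.727).

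The difference of the knockdown effect between macrophages and T cells was tested for 11729 genes in 1 fit, again with no term for the library. Of these, 305 (2.6%) passed, 202 (1.72%) towards higher and 103 (0.878%) towards lower in macrophages. The median gene differed by 0.35, so the test as scaled leaned towards higher. With total counts the median was -0.01, and 139 of the 305 remained among 245 calls, 14.7% of them higher. With a term for the library 173 passed. Ccl12 differed by -2.47 (adjusted p = 1.96e-06), while the T cells' own means were 0.606 and 1.06 CPM. Malat1 differed by 2.53 (adjusted p = 7.68e-09). Ccl8, Gm42418 and Ccl5 were not called different, with values for Gm42418 of 0.15, for Ccl8 of -0.49 (adjusted p = 0.729) and for Ccl5 of -0.07 (adjusted p = 1.00). For genes that T cells hardly make, such as Ccl8, the T cell value rests on a few UMIs.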

How the data were processed

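UMI counts of RNA and of antibody tags, not normalized, were deposited by the authors for 4 libraries. They had been made with Cell Ranger (6.1.1 in the headers of the matrices used) and the STAR aligner on mm10, and the submitters' processing notes also name Seurat 4.0.0. The members and the gene lists were chosen with earlier results of these data known. UMIs were summed per library over the macrophages (288076 RNA UMIs at most, 103618 at least) and tested with edgeR 4.0.16 (quasi-likelihood, TMM, filterByExpr, no block) in R 4.3.3, with Benjamini-Hochberg adjustment over all features tested. Standard errors came from the F statistic. CPM are UMIs scaled to the same total in each sum. Shares were tested by exact permutation (scipy 1.17.1). No gene set test and no doublet caller was run, and the limit on Cd3 UMIs left out barcodes with C1q and Cd3 RNA together. The 9 isotype tags were kept and 1 tag without a name was left out. Named genes were the called ones with a mean of at least 50 CPM, no overlap between groups and a level at least that of T cells (at most 12 each way), up to 4 per list (called, then most abundant), the markers and Cd276. Named tags were the 8 highest and lowest called and known myeloid proteins. Other named genes (Malat1, mt-Nd2, Ccl5, Ccl7, Aif1, Trem2, Fabp5, Psme1, Psme2, Ccl6, Ccr2) were chosen after their values were seen. So were the tags folate receptor beta, CD169, MERTK, SIRP-alpha, CD36, CD204, CX3CR1, CD48 and CD45.2. The steps were tested on simulated counts. Alternatives were other limits on the barcodes, DESeq2 1.42.0, other scalings, no filter, a replicate block and leaving out each library. Subtraction of T cell or free RNA, isotype scaling, leaving out each feature's highest barcodes and the test of tag changes between cell types were added after the data had been examined. No batch or date is given in the sources used here.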

Additional observations from a re-analysis of the deposited data

Results flagged for a closer look

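The change from control to knockdown differed between macrophages and T cells of the same libraries for 3 called genes (edgeR interaction term, adjusted over all genes tested). In log2 units, macrophages minus T cells, the difference was -2.469 for Ccl12, 2.534 for Malat1 and 0.8849 for mt-Nd2. These values come from 1 fit with its own scaling, in which the median gene differed by 0.3508. They therefore do not equal the differences between the separate fits of macrophages and T cells. The macrophage side of the Ccl12 value rests on 1 barcode in each control library. The same test of the tags, added after the data had been examined, marked 9 of 27 named tags, all towards lower on macrophages, where 14 of the 27 had already been called lower between the groups. Over all 197 tags 13.7% differed, 9.14% towards lower. The differences were -1.99 for CD38, -1.879 for CD39, -1.335 for CD11b, -1.171 for CD16/32, -1.091 for I-A/I-E, -1.061 for CD11c, -0.8167 for CD86, -0.6357 for PD-L1 and -0.5173 for CD40. On T cells the changes were 0.37 for CD11c, 0.30 for CD86, -0.06 for PD-L1, -0.02 for CD40 and 0.25 for mt-Nd2.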

How the results depend on the processing

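With 31 and 37 control macrophages, single barcodes can set a control level, and calls of 2 against 2 libraries speak of these libraries only. A library left alone in its group by leaving out the other was assumed to vary as the remaining group does. Samples share the numbers 1 and 2 by label only. Deviations of same-numbered libraries correlated at 0.0307 (RNA, 1000 genes) and -0.0361 (197 tags). These came from macrophage sums, in which single barcodes can set a control level, so low values cannot exclude a pairing. The numbers were not taken to pair the libraries.

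RNA calls, 7 higher and 1 lower, numbered 17 and 13 without any Cd3 UMI, 0 and 0 with neither Cd3 nor T cell receptor constant UMIs, 60 and 22 with no upper limit on genes, 16 and 9 by DESeq2, 24 and 21 without the low-count filter, 20 and 18 with the replicate block and 15 and 6 without each gene's highest barcodes. Lower calls also moved to 10 with total counts, 3 without barcodes holding other cell types' markers and 2 with T cell RNA subtracted. Leaving out 1 library gave 10 (without knockdown library 2) to 64 (without control library 1) higher and 8 (without knockdown library 2) to 41 (without control library 2) lower. Members of the lists called higher (1) and lower (1) became 5 and 7, 0 and 0, 21 and 6, 6 and 4, 10 and 10, 6 and 11, and 4 and 4 under the first 7 settings in that order, 2 and 5 with total counts, and 2 higher with T cell or with free RNA subtracted, with 3 to 25 and 5 to 18 when 1 library was left out. With total counts the median RNA difference was -0.118.

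Tag calls between groups, 41 higher and 41 lower, became 9 and 19 with neither Cd3 nor receptor UMIs, 108 and 23 with total counts and 11 and 70 scaled to isotype controls. Higher calls were 22 with no upper limit on genes. Leaving out 1 library gave 11 (without knockdown library 2) to 27 higher and 27 (without knockdown library 1) to 48 lower. Against T cells, the 30 higher tags became 54 with no upper limit, 46 with mitochondrial UMIs up to 10%, 149 with total counts and 14 scaled to isotype controls, and 17 to 22 without 1 library. The 45 lower became 22 with total counts and 35 to 39 without 1 library. Genes whose change differed between the cell types, 202 and 103, became 36 and 209 with total counts, 116 and 57 with a term for the library, and 23 to 151 and 16 to 105 without 1 library. Both counts were lowest without a knockdown library.

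The ratio of macrophage shares stayed between 4.23 and 7.23 without 1 library, the difference in the share of Ccl8-positive cells between 4.26 (without control library 2) and 29.3 points, and that of Ccl12 between -19.6 and -0.457 (without knockdown library 1). Among the reversals were Mif at 0.0203 and the CD24 tag at -3.50 with no upper limit on genes, besides F4/80 at 0.0493 with total counts, Ccl8 at -0.65, Malat1 at -0.32, Cxcl9 at -0.0459 without its highest barcodes and from -0.15 (without knockdown library 1) to 0.95 without 1 library, the CD3 tag at 0.53, and CX3CR1 against T cells at 0.0353 with at least 10 C1q UMIs, 0.0185 without barcodes holding other cell types' markers, 0.769 with total counts and -0.0699 to 0.0473 without 1 library. The causes were not tested. Of the single RNA values under all settings, 502 kept direction and side of the threshold, 97 passed only there, 18 lost it and 5 reversed. For tags between groups the counts were 407, 4, 46 and 2, and for tags against T cells 349, 14, 8 and 6. With neither Cd3 nor receptor UMIs, I-A/I-E (-1.09, adjusted p = 0.198), CD16/32 (-0.87, adjusted p = 0.0765), CD68, CD11c, CD86, CD40, PD-L1, CD24, CD14, MERTK, CD169 and folate receptor beta lost their calls, with 17, 11, 45 and 27 macrophages left and log2 differences of -1.55, -0.41, -0.46, -0.59, -0.09, 0.54, 0.49, 0.34, 0.34 and 0.59 for the last 10 in that order. CD38 lost it with at least 10 C1q UMIs (-0.36, adjusted p = 0.0685) and with mitochondrial UMIs up to 10% (-0.36, adjusted p = 0.234).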
